A study of Mus musculus with 4 samples.

Results

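Angiogenic ligands and the endothelial receptors that bind them were measured in 4 lung tumors of KP mice. The set holds 10 genes, which are the ligands Vegfa, Vegfb, Vegfc and Pgf, their receptors Kdr, Flt1 and Flt4, the receptor Tek, and the Tek ligands Angpt1 and Angpt2. Members were taken as the rows of the count table whose gene symbol matched 1 of these names, and 10 of 10 were found among 39017 genes. All 10 had a mean of at least 1 CPM (the count scaled to an effective library size of 1000000), as did 14225 genes in all.

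Vegfa is the main growth factor for blood vessels, and it binds Kdr (VEGF receptor 2), which carries most of the signal for endothelial growth, and Flt1 (VEGF receptor 1), which binds tightly but signals weakly and is also made as a soluble trap. Vegfb and Pgf bind Flt1, whereas Vegfc binds Flt4 (VEGF receptor 3), the receptor of lymphatic vessels. Tek (Tie2) is the endothelial receptor of the angiopoietins, of which Angpt1 steadies vessels and Angpt2 is stored and released by activated endothelium. In normal lung, alveolar epithelial cells make Vegfa next to capillaries that carry Kdr.

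The tumors formed 1 group of 4 control samples from male C57BL/6 mice carrying K-rasLSL-G12D/WT and p53Fl/Fl, in which Cre recombinase switches on mutant K-ras and removes p53. Each mouse was given 1500 units of a lentivirus whose PGK promoter drives Cre, through the trachea, and tumors were macrodissected 22 weeks and 5 days later and dissociated before RNA extraction. The labels also call the mice heterozygous fl/wt without naming the gene, whereas 1 deposited table marks the tumors as WT, and by the study's methods controls could be wild type or carry 1 floxed Slc2a1 allele. The labels do not say that the tumors came from separate mice, so p-values hold only for these samples. Those of the chi-square test below measure departure from counting noise. With 1 library per tumor, differences between tumors and between library preparations cannot be told apart. RNA was taken from all cells of a tumor, and in such bulk samples fewer cells of a type and less RNA per cell cannot be told apart.

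Total counts were between 8151613 and 8799007 per tumor, so that 3 counts, taken here as an approximate upper limit for a count of 0, corresponded to 0.330 to 0.370 CPM. Alveolar type 2 markers summed to between 31346 CPM in tumor 1 and 56199 CPM in tumor 4, and 18 of 18 pan-endothelial markers had a mean of at least 1 CPM and summed to between 517 and 658 CPM. The 4 tumors therefore held the transcripts of both compartments. The list means of endothelial, leukocyte, lymphatic, pericyte and smooth muscle, and fibroblast markers were highest in tumor 3, as given beside the members below.

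To show the regulatory sequence in front of the receptors that endothelial cells use for Vegfa and angiopoietins, the 250 bases before the RefSeq start site of Kdr, Flt1 and Tek are printed 5′ to 3′ on the strand of the gene (RefSeq, GRCm38.p6). Capitals mark GGAA and its reverse complement TTCC, the core bound by ETS family factors, and TATAAA, the TATA box. The windows are chr5:75978456-75978705 on the minus strand for Kdr, chr5:147726012-147726261 on the minus strand for Flt1 and chr4:94739039-94739288 on the plus strand for Tek.
Kdr: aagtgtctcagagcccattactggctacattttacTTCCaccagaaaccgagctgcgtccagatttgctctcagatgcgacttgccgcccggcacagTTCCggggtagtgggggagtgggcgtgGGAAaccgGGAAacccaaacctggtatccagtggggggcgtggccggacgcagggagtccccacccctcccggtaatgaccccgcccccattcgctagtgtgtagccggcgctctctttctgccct
Flt1: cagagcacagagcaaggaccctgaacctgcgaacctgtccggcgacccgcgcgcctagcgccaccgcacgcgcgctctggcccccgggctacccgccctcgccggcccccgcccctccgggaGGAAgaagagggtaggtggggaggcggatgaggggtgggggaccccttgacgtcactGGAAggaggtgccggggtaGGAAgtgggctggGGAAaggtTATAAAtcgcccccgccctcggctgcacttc
Tek: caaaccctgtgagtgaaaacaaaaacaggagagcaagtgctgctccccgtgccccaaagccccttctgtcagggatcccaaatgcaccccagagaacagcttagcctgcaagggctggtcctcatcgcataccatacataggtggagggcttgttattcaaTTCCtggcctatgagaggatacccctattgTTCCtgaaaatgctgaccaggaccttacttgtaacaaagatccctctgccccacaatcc

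The Kdr and Flt1 windows each held 4 ETS cores, and the Tek window held 2. In Kdr the cores began at positions -215, -153, -126 and -118 relative to the start, and in Flt1 at -128, -71, -52 and -39, close to a TATAAA that began at -31. The Tek cores began at -89 and -59, with no TATA box and no GC box (GGGCGG or CCGCCC) in the window. Kdr held 2 GC boxes and Flt1 held 3. Such letters are common, since 93.4% of 32851 RefSeq windows of the same length held at least 1 ETS core, 33.4% held at least 4, 12.4% held TATAAA or TTTATA and 32.7% held a GC box, counting both strands. Of the 10 genes, 8 were matched to a window. A match describes the letters and not a bound site.

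Vegfa was the most abundant member, both in CPM and per length of exon. Together the 10 genes held 0.0557% of all counts, and 70.0% of these counts belonged to Vegfa, which ranked 317 of 14225 genes by mean CPM. Levels of the 10 genes spread between tumors by a median SD of 0.46 in log2 CPM, beside 0.29 over all genes tested. These medians are not matched for level, and counting alone gives an SD of 0.29 for Vegfc and 0.31 for Pgf but 0.025 for Vegfa. Each gene's counts were set against Poisson expectations (chi-square test with Benjamini-Hochberg adjustment), and spread beyond counting noise was found for 8 of 10 members, and 76.7% of all genes tested passed the same test. The share in the set is therefore near that of all genes, and without tumor 3 the count was 5. None of the 10 had 1 tumor standing apart by Dixon's ratio of gap to range, which 5.86% of all genes did.

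**Figure D1:**
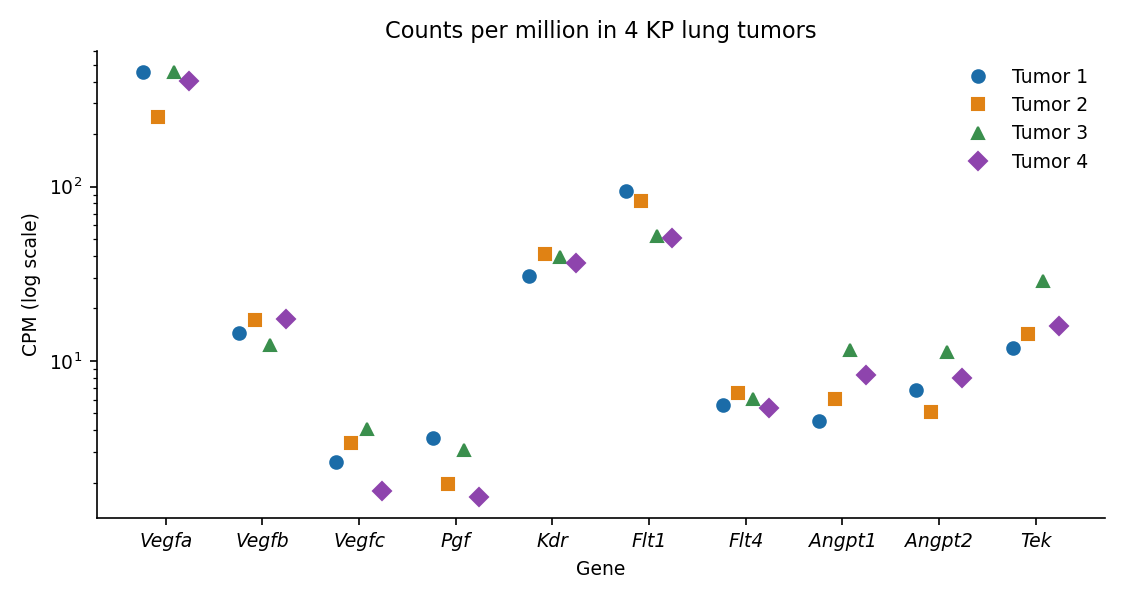
CPM of the 10 genes on a log scale, with 1 point per tumor. Vegfa lies between 250 and 454 CPM and the 9 other genes lie below 100 CPM, with Vegfc and Pgf at the bottom and tumor 3 highest for Tek, Angpt1, Angpt2 and Vegfc.

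Among the VEGF ligands, Vegfa (ENSMUSG00000023951, chr17:46016993-46032369, minus strand) had 454, 250, 452 and 402 CPM in tumors 1 to 4. Tumor 2 was lowest and the other 3 lay close together. The mean was 390 ± 95.9 CPM (SD, n = 4), the highest tumor was 1.81 times the lowest, and the 4127, 2155, 3661 and 3379 counts differed by more than counting noise (chi-square test, adjusted p = 2.9e-130). Among the 10269 genes with a mean of at least 10 CPM, its log2 spread of 0.41 (SD) ranked 2135 from the widest. The gene is annotated with 13 transcripts over 8 blocks of exon, and gene counts do not separate its isoforms.

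Vegfb (ENSMUSG00000024962, chr19:6982473-6987651, minus strand) is a Flt1 ligand linked to fatty acid handling in other tissues. Its levels were 14.4, 17.1, 12.3 and 17.4 CPM (mean 15.3 ± 2.38, SD, n = 4), a narrow range in which the highest tumor was 1.41 times the lowest. Its spread passed the chi-square test with an adjusted p of 0.0356, but not without tumor 3 (0.295) or without tumor 4 (0.0561), nor when library size alone scaled the counts (0.0523).

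Pgf and Vegfc had few counts. Pgf (placental growth factor, ENSMUSG00000004791, chr12:85166635-85177790, minus strand) had 33, 17, 25 and 14 counts, or 3.63, 1.97, 3.09 and 1.67 CPM (mean 2.59 ± 0.924, SD, n = 4). Vegfc (ENSMUSG00000031520, chr8:54077606-54187096, plus strand), the ligand that drives lymphatic growth, had 24, 29, 33 and 15 counts, or 2.64, 3.37, 4.07 and 1.78 CPM (mean 2.97 ± 0.981, SD, n = 4). Both were lowest in tumor 4, and Pgf was highest in tumor 1 whereas Vegfc was highest in tumor 3. At these counts the tests were near the threshold, with chi-square adjusted p of 0.0468 for Pgf and 0.0560 for Vegfc. Pgf lost its call without tumor 1 (0.171), tumor 2 (0.0590) or tumor 4 (0.149), and with no filter on low counts (0.0651), whereas Vegfc gained one without tumor 1 (0.0394) or tumor 2 (0.0294).

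To compare different genes, CPM was divided by the length of each gene's merged exons in kilobases. On this scale Vegfa held 90.4%, 82.1%, 91.0% and 88.6% of the summed level of the 4 ligands in tumors 1 to 4 (mean 88.0% ± 4.05, SD, n = 4). Vegfb held 9.87% ± 3.71, Vegfc 1.24% ± 0.556 and Pgf 0.870% ± 0.228. The tumor with the lowest Vegfa share, tumor 2, had the highest Vegfb share, 15.0%.

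Within a tumor, log2 CPM per kilobase of Vegfa exceeded that of Vegfb by 3.56, 2.45, 3.77 and 3.11 (mean 3.22 ± 0.58, SD, n = 4), a 9.33-fold difference in level. The excess over Pgf was 6.67 ± 0.44 and that over Vegfc 6.22 ± 0.70 on the same log2 scale, 102-fold and 74.8-fold. These 3 differences had the same sign in 4 of 4 tumors and were several times their SD. Each gave p = 0.125 by an exact permutation test that flips signs over tumors (two-sided), the smallest p that 4 tumors allow, so that none of the 6 pairs compared here could pass 0.05 and no adjustment over the pairs could alter this.

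The receptors of Vegfa differed in which tumor was highest. Flt1 (ENSMUSG00000029648, chr5:147561604-147726011, minus strand) had 861, 708, 424 and 426 counts, or 94.7, 82.2, 52.3 and 50.7 CPM (mean 70.0 ± 22.0, SD, n = 4). Tumors 1 and 2 were high and tumors 3 and 4 low, with the highest 1.87 times the lowest. The spread was beyond counting noise (chi-square test, adjusted p = 4.0e-37), also without any 1 tumor (at most 1.7e-18). By log2 spread (SD 0.46) Flt1 ranked 1634 from the widest of 10269 genes. Its counts join the membrane receptor and the soluble form, which gene counts do not separate.

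Kdr (ENSMUSG00000062960, chr5:75932827-75978458, minus strand), the main signaling receptor for Vegfa, had 30.7, 41.0, 39.2 and 36.6 CPM (mean 36.9 ± 4.50, SD, n = 4). Tumor 1, the highest for Flt1, was the lowest for Kdr, and the highest tumor was 1.34 times the lowest. The 279, 353, 318 and 308 counts passed the chi-square test (adjusted p = 0.00334), but not without tumor 1 (0.409). Its log2 spread of 0.18 (SD) ranked 7051 of 10269 genes.

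Flt4 (ENSMUSG00000020357, chr11:49609263-49652739, plus strand), the Vegfc receptor of lymphatic endothelium that is also found on some blood capillaries, had the least spread of the 10 genes. Its levels were 5.61, 6.50, 6.05 and 5.35 CPM (mean 5.88 ± 0.506, SD, n = 4) from 45 to 56 counts per tumor. The log2 spread, an SD of 0.12, was below the 0.20 that counting alone gives at this depth, and no spread beyond counting noise was detectable (chi-square test, adjusted p = 0.790).

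In counts, Kdr made up 24.5% of the reads of Kdr and Flt1 in tumor 1 (95% Wilson interval 22.1 to 27.1%, 279 of 1140 counts) and 33.3% in tumor 2 (30.5 to 36.2%, 353 of 1061). The share was 42.9% in tumor 3 (39.3 to 46.4%, 318 of 742) and 42.0% in tumor 4 (38.4 to 45.6%, 308 of 734). The intervals of tumors 3 and 4 overlapped each other, and those of tumors 1 and 2 overlapped no other. They cover counting error alone, and 76.7% of all genes tested spread beyond counting noise. How often the intervals of other gene pairs part in this way was not computed. Per kilobase, Kdr was lower than Flt1 by 1.04 and 0.42 on the log2 scale in tumors 1 and 2 and higher by 0.17 and 0.11 in tumors 3 and 4. The mean difference of Kdr minus Flt1, -0.30 ± 0.56 (SD, n = 4), was smaller than its spread (exact sign-flip permutation test, p = 0.5) and was -0.05 without tumor 1. With the longest transcript as length Kdr was lower than Flt1 in 4 of 4 tumors, by 0.20 and 0.25 in tumors 3 and 4, and the mean of -0.66 was larger than its SD (exact sign-flip permutation test, p = 0.125). The lengths differ since 6 annotated Flt1 transcripts add up to 13504 exon bases whereas the longest has 6895.

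**Figure D2:**
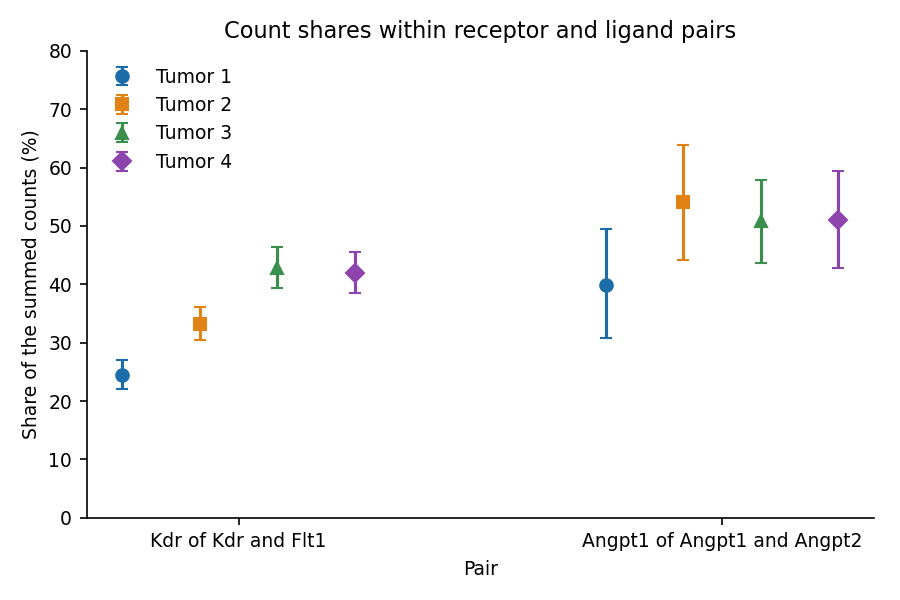
Share of summed counts held by Kdr (of Kdr and Flt1) and by Angpt1 (of Angpt1 and Angpt2) in each tumor, in percent, with 95% Wilson intervals that cover counting error only. The Kdr share runs from 24.5% in tumor 1 to 42.9% in tumor 3, and the Angpt1 intervals of all 4 tumors overlap.

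Kdr exceeded Flt4 per kilobase by 2.31, 2.51, 2.55 and 2.63 on the log2 scale (mean 2.50 ± 0.14, SD, n = 4), a 5.66-fold difference in level with the smallest spread of the 6 pairs. It held in 4 of 4 tumors (exact sign-flip permutation test, p = 0.125). Of the summed level per kilobase of the 3 VEGF receptors, Flt1 held 51.0% ± 9.29, Kdr 41.7% ± 8.41 and Flt4 7.24% ± 0.900 (SD, n = 4).

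Tek and both angiopoietins were highest in tumor 3. Tek (ENSMUSG00000006386, chr4:94739289-94874976, plus strand) had 108, 122, 232 and 133 counts, or 11.9, 14.2, 28.6 and 15.8 CPM (mean 17.6 ± 7.51, SD, n = 4). Tumor 3 was 2.41 times the lowest tumor, tumor 1, and the other 3 tumors lay within 4 CPM of each other. The spread was beyond counting noise over 4 tumors (chi-square test, adjusted p = 8.5e-17) but not without tumor 3 (0.121). By log2 spread (SD 0.55) Tek ranked 1094 from the widest of 10269 genes, the widest of the 5 members at that level.

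Angpt1 (ENSMUSG00000022309, chr15:42424723-42676977, minus strand), made mainly by mural and mesenchymal cells, had 41, 52, 94 and 70 counts, or 4.51, 6.04, 11.6 and 8.33 CPM (mean 7.62 ± 3.08, SD, n = 4). Tumor 1 was lowest and tumor 3 was 2.57 times as high, the largest ratio in the set. The chi-square test gave an adjusted p of 1.1e-06, and at most 0.0111 without any 1 tumor. An antisense gene, Gm17473, shares 737 exon bases with Angpt1, and the strand setting of the counting is not given in the sources used here, but only 4 counts were assigned to it over all tumors beside 257 for Angpt1.

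Angpt2 (ENSMUSG00000031465, chr8:18690263-18741562, minus strand), an endothelial product that can block Tek, had 62, 44, 91 and 67 counts, or 6.82, 5.11, 11.2 and 7.97 CPM (mean 7.78 ± 2.58, SD, n = 4). Tumor 2 was lowest and tumor 3 was 2.20 times as high. Its spread was called over 4 tumors (chi-square test, adjusted p = 0.000151) but not without tumor 3 (0.102). The gene lies inside Mcph1 on the opposite strand without sharing exon bases, and Mcph1 was lowest in tumor 3, at 13.5 CPM beside up to 19.7 CPM.

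The angiopoietins were close to equal in counts in tumors 2 to 4, whereas Angpt1 had fewer counts than Angpt2 in tumor 1. Angpt1 held 39.8% of their summed counts in tumor 1 (95% Wilson interval 30.9 to 49.5%, 41 of 103), 54.2% in tumor 2 (44.2 to 63.8%, 52 of 96), 50.8% in tumor 3 (43.7 to 57.9%, 94 of 185) and 51.1% in tumor 4 (42.8 to 59.3%, 70 of 137). These intervals overlapped between all tumors. The merged exons of Angpt1 are longer (5205 against 3690 bases). Its level per kilobase was lower than that of Angpt2 in 4 of 4 tumors, by 1.09, 0.26, 0.45 and 0.43 on the log2 scale. The mean of Angpt1 minus Angpt2 was -0.56 ± 0.36 (SD, n = 4, exact sign-flip permutation test, p = 0.125). With the longest transcript as length the mean was -0.32, smaller than its SD.

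In order of mean CPM per kilobase the genes ran from Vegfa (90.9 ± 22.4, SD, n = 4) to Vegfb (9.53 ± 1.48), Flt1 (5.18 ± 1.63), Kdr (4.09 ± 0.499), Tek (3.74 ± 1.59), Angpt2 (2.11 ± 0.699), Angpt1 (1.46 ± 0.592), Vegfc (1.21 ± 0.401), Pgf (0.892 ± 0.318) and Flt4 (0.714 ± 0.0615). Of the 9 steps between neighbors, 4 were larger than their SD and held in 4 of 4 tumors. These were Vegfa over Vegfb, Vegfb over Flt1 (log2 difference 0.92 ± 0.48), Tek over Angpt2 (0.79 ± 0.31) and Angpt2 over Angpt1. The steps between Flt1 and Kdr, between Kdr and Tek (0.20 ± 0.48), between Angpt1 and Vegfc (0.23 ± 0.67), between Vegfc and Pgf (0.44 ± 0.51) and between Pgf and Flt4 (0.27 ± 0.53) were each smaller than their SD. The choice of length changed several steps. With the longest transcript as length, Vegfb over Flt1 (0.28) and Angpt2 over Angpt1 (0.32) were smaller than their SD, whereas Flt1 over Kdr (0.66 ± 0.56) and Kdr over Tek (0.79 ± 0.48) were larger than theirs and held in 4 of 4 tumors. Vegfc and Pgf were then level (-0.04).

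**Figure D3:**
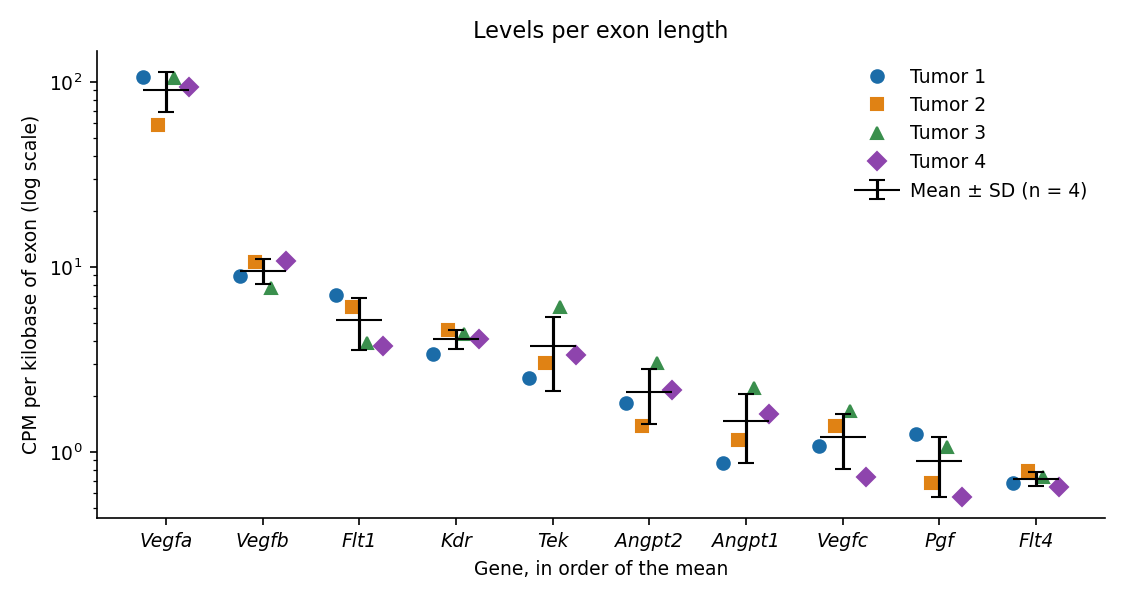
CPM per kilobase of merged exon length on a log scale for the 10 genes in order of their means, with 1 point per tumor and bars for mean ± SD (n = 4). Vegfa at 90.9 stands clear of Vegfb at 9.53, whereas Flt1, Kdr and Tek overlap between 2.5 and 7.0.

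Counted by the tumor in which each was highest, 3 of 10 genes peaked in tumor 1 (Vegfa, Pgf and Flt1), 2 in tumor 2 (Kdr and Flt4), 4 in tumor 3 (Vegfc, Tek, Angpt1 and Angpt2) and 1 in tumor 4 (Vegfb). Vegfa was nearly tied, with 454 CPM in tumor 1 and 452 CPM in tumor 3. Over all genes tested the shares were 31.4% in tumor 1, 20.4% in tumor 2, 30.2% in tumor 3 and 18.0% in tumor 4, so the counts of the set lay near the background.

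The receptors were next set against 18 pan-endothelial markers that exclude the members. The mean log2 CPM of these markers was 4.28, 4.14, 4.62 and 4.25 in tumors 1 to 4, and 13 of the 18 were highest in tumor 3, beside 30.2% of all genes. Among them Pecam1, the platelet and endothelial adhesion molecule, had 70.5, 73.9, 110 and 78.6 CPM, and Cd34, a sialomucin of small vessels, 79.6, 78.4, 104 and 85.9 CPM. Esam, a junctional adhesion molecule, was highest in tumor 2 (82.8 CPM) and Vwf, the clotting factor carrier, in tumor 1 (67.3 CPM). Ramp2, which pairs with the adrenomedullin receptor, had 13.7 CPM in tumor 3 and between 9.99 and 10.1 CPM in the others. The spread of Ramp2 did not exceed counting noise (chi-square test, adjusted p = 0.0749). Pecam1 shares near-identical stretches with other genes, so its counts are uncertain.

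Flt1 exceeded the mean of these endothelial markers by 2.28 and 2.22 in tumors 1 and 2 and by 1.10 and 1.41 in tumors 3 and 4, in log2 CPM. Its SD between tumors was larger after this comparison (0.59) than before it (0.46). Kdr exceeded the list mean by 0.66, 1.22, 0.68 and 0.95, with an SD of 0.26 beside 0.18 for Kdr itself, and Flt4 minus the list mean was -1.78, -1.43, -2.005 and -1.82, with an SD of 0.24 beside 0.12. Kdr and Flt4 themselves spread less than the list mean (SD 0.20), which left little room for a reduction. For Flt1, Kdr and Flt4 the spread between tumors was thus not smaller relative to endothelial transcripts. For Tek it was smaller, since Tek minus the list mean was -0.70, -0.31, 0.23 and -0.26 (SD 0.38, beside 0.55 for Tek itself). Tek was still highest in tumor 3 on this relative scale.

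**Figure D4:**
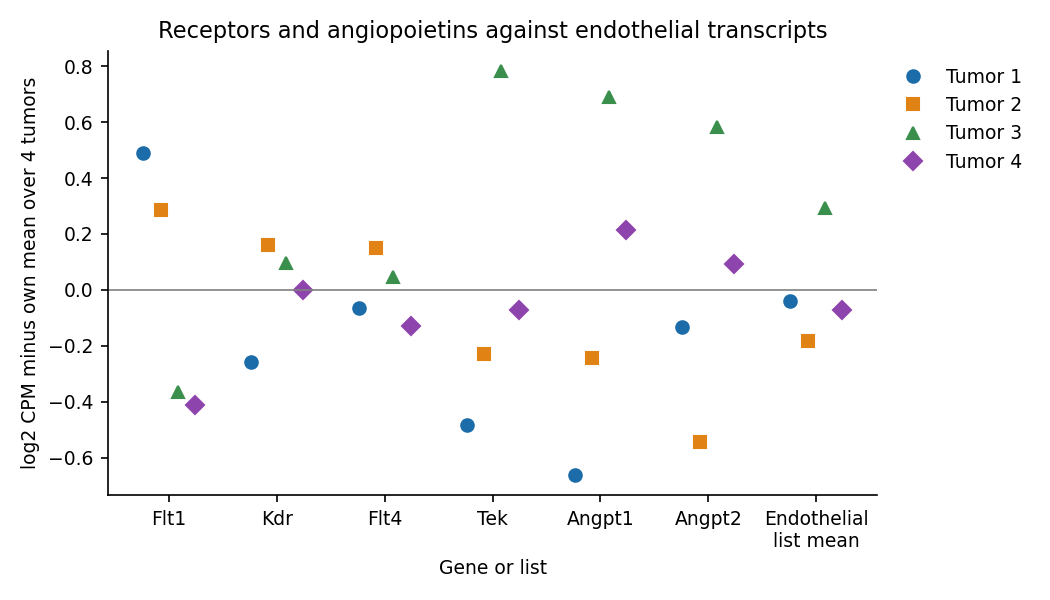
Log2 CPM of 6 genes and the mean of 18 pan-endothelial markers, each minus its own mean over the 4 tumors, with 1 point per tumor. Tumor 3 is highest for Tek, Angpt1, Angpt2 and the endothelial mean, whereas tumor 1 is highest for Flt1 and lowest for Kdr, Tek and Angpt1.

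Other cell types moved with tumor 3 as well. The mean log2 CPM of 6 pan-leukocyte markers was 5.02, 5.36, 6.10 and 5.42 in tumors 1 to 4, and 5 of the 6 were highest in tumor 3. Ptprc, the leukocyte antigen Cd45, had 83.4 CPM in tumor 3 and 26.2 to 38.5 CPM in the others. Summed pan-leukocyte levels, which Lcp1 dominates, were highest in tumor 2 instead (832 CPM, beside 812 CPM in tumor 3 and 526 CPM in tumor 1). The part of endothelial, leukocyte, mural or mesenchymal content in the Tek, Angpt1 and Angpt2 levels of tumor 3 was not tested.

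Lung capillary markers were measured as a list of 10 genes, of which 8 showed spread beyond counting noise, near the 76.7% of all genes, and 8 were highest in tumor 3, as were 30.2% of all genes. Calcrl, the adrenomedullin receptor, had 43.2, 48.1, 107 and 70.1 CPM, and Car4, a carbonic anhydrase of alveolar capillaries, had 44.0, 22.1, 60.6 and 52.0 CPM. Cd93, an endothelial lectin, ranged less, from 67.9 to 82.9 CPM, but it shares a near-identical stretch with Ankrd40, so its counts are uncertain. Calcrl and Car4 thus shared their highest tumor with Tek.

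Lymphatic markers differed more between tumors than their receptor Flt4. Of 6 lymphatic markers 5 were tested, and their mean log2 CPM was 2.52, 2.26, 3.80 and 2.70, an SD of 0.68 beside 0.12 for Flt4. Mmrn1, a secreted protein of lymphatic endothelium, had 0.770, 1.74, 11.5 and 3.09 CPM, Lyve1, a hyaluronan receptor, 12.7, 15.0, 21.7 and 20.3 CPM, and Prox1, the lymphatic master regulator, 5.50, 1.63, 2.47 and 1.55 CPM. Ccl21a had 0 counts in all tumors, and Pdpn, also an alveolar type 1 gene, had 85.7 to 222 CPM. Vegfc shared its highest tumor with Mmrn1 and Lyve1, at 4.07 CPM in tumor 3. Whether lymphatic content had a part in the Vegfc level was not tested.

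Vegfa was set against the epithelial compartments that can make it. Alveolar type 1 markers had a mean log2 CPM of 7.24, 6.62, 7.65 and 7.59 in tumors 1 to 4, lowest in tumor 2 like Vegfa, and summed to 2305, 1389, 2515 and 2476 CPM. Vegfa minus this mean was 1.59, 1.34, 1.17 and 1.06, with an SD of 0.23 beside 0.41 for Vegfa itself. Ager, the receptor that marks alveolar type 1 cells, had 1117, 697, 1224 and 1004 CPM, and it too was lowest in tumor 2. Clic5, a chloride channel protein, had 243, 129, 342 and 448 CPM, Akap5, a kinase anchor, 353, 163, 204 and 377 CPM, and the water channel Aqp5 232, 194, 258 and 298 CPM. All 4 were lowest in tumor 2, but their order among the other tumors was not that of Vegfa.

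General epithelial markers had a mean log2 CPM of 8.92 in tumor 1 and 8.06 to 8.21 in the others, and Vegfa minus this mean had an SD of 0.42, not smaller than the 0.41 of Vegfa itself. Hypoxia response genes, of which Vegfa is a classical target, had mean log2 CPM of 6.74, 6.13, 6.37 and 6.17, lowest in tumor 2 like Vegfa. The mean was highest in tumor 1, as were 8 of the 14 genes (31.4% of all genes were). Vegfa itself was nearly level between tumor 1 (454 CPM) and tumor 3 (452 CPM). Vegfa minus the hypoxia mean was 2.08, 1.84, 2.45 and 2.48, with an SD of 0.31 beside 0.41 for Vegfa itself. Hif1a, the oxygen-sensitive transcription factor, had 411, 321, 459 and 281 CPM, and its relative Epas1 had 199, 276, 268 and 248 CPM. The glycolytic enzymes Ldha (1196 to 2032 CPM) and Pgk1 (817, 389, 669 and 495 CPM) were lowest in tumor 2, with uncertain counts because near-identical copies exist. All 14 hypoxia genes showed spread beyond counting noise, beside 76.7% of all genes. Alveolar type 2 markers went another way, with a mean of 10.34 in tumor 1 and 11.26 to 11.41 in the others. The part of any cell type or of hypoxia in the Vegfa level was not tested.

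**Figure D5:**
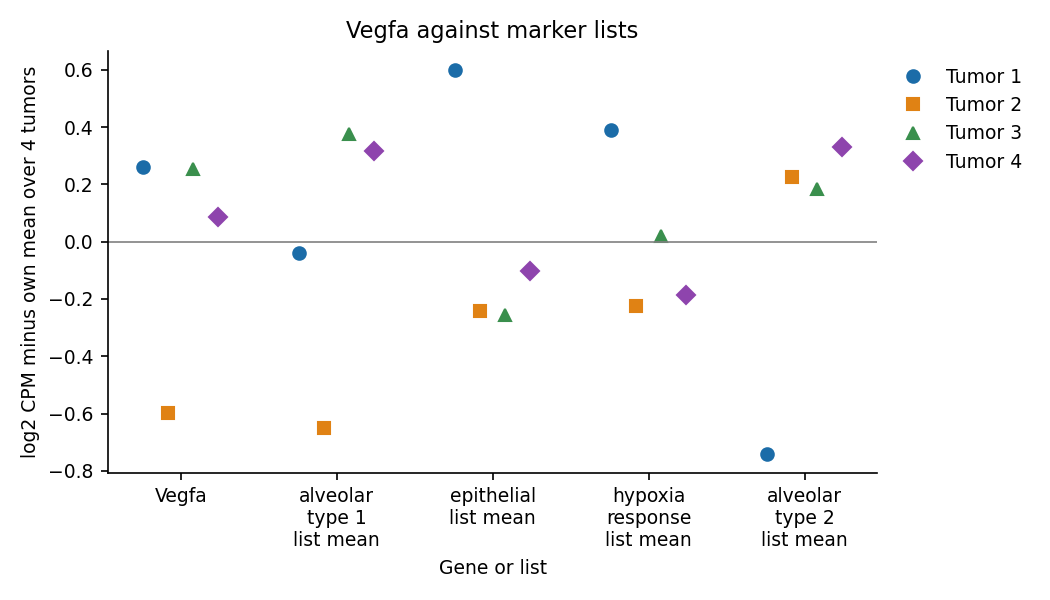
Log2 CPM of Vegfa and the means of 4 marker lists, each minus its own mean over the 4 tumors, with 1 point per tumor. Tumor 2 is lowest for Vegfa and for the alveolar type 1 and hypoxia lists, and tumor 1 is highest for Vegfa and for the epithelial and hypoxia lists and lowest for the alveolar type 2 list.

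Angpt1 was set against mural and mesenchymal markers. The mean log2 CPM of 12 pericyte and smooth muscle markers was 3.76, 3.44, 3.84 and 3.32 in tumors 1 to 4. That of 7 fibroblast markers was 4.87, 4.89, 5.28 and 4.73. Both means were highest in tumor 3, like Angpt1. Its log2 CPM minus the mean of 12 pericyte and smooth muscle markers was -1.57, -0.83, -0.29 and -0.25 in tumors 1 to 4, with an SD of 0.62 beside 0.58 for Angpt1 itself. Minus the mean of 7 fibroblast markers it was -2.68, -2.28, -1.74 and -1.66, with an SD of 0.48. Rgs5, a pericyte regulator of G protein signaling, had 57.3, 64.1, 90.9 and 81.2 CPM, the same order of tumors as Angpt1. Of the 12 pericyte and smooth muscle genes, however, 6 were highest in tumor 1, where Angpt1 was lowest, and 4 in tumor 3. Of all genes 31.4% were highest in tumor 1 and 30.2% in tumor 3. Pdgfrb, the receptor that recruits pericytes, ran from 24.3 CPM in tumor 4 to 37.4 CPM in tumor 1, and Acta2, smooth muscle actin, had 299.8, 99.0, 372 and 106 CPM. Of 12 pericyte and smooth muscle genes 10, and of 7 fibroblast genes tested 7, showed spread beyond counting noise, beside 76.7% of all genes. The fibroblast genes Dcn (37.3, 57.4, 138 and 65.2 CPM) and Col1a1 (125, 66.9, 49.4 and 32.2 CPM) peaked in different tumors.

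Partners of the VEGF and angiopoietin pathway were taken as a list of 15. Of these 14 were tested and 13 showed spread beyond counting noise (76.7% of all genes did), with a median SD of 0.33 in log2 CPM. Nrp1, the neuropilin that binds Vegfa beside Kdr but also marks other cells, had 71.7, 239, 463 and 231 CPM, a spread in log2 CPM of 1.12 (SD) beside 0.18 for Kdr and 0.41 for Vegfa. Ptprb, the phosphatase that restrains Tek, had 44.8, 49.7, 73.4 and 51.6 CPM, with tumors in the order 3, 4, 2 and 1 as for Tek. Plxnd1, a semaphorin receptor, stayed between 50.5 and 62.6 CPM, and Plcg1, the phospholipase that Kdr activates, between 148 and 204 CPM, with counts uncertain because it overlaps another gene. Vegfd, the other Flt4 ligand, had 7.20 CPM in tumor 2 and 5.28 to 5.55 CPM in the others, and its spread did not exceed counting noise (chi-square test, adjusted p = 0.353). Tie1, the receptor that pairs with Tek and was named after its values were seen, had 23.0, 17.2, 23.4 and 19.0 CPM and so lacked the tumor 3 excess of Tek.

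Genes of endothelial sprouting and Notch signaling were tested as a list of 13, and 12 showed spread beyond counting noise, beside 76.7% of all genes. Apln, a peptide of sprouting tip cells that other cells also make, had 82.9, 173, 180 and 43.9 CPM, and Jag1, a Notch ligand, 106, 87.8, 52.1 and 116 CPM. Notch1 ran from 49.9 to 65.6 CPM and Unc5b, a guidance receptor of endothelium, from 18.9 to 29.0 CPM, both highest in tumor 1 like Flt1. In all, 7 of the 13 were highest in tumor 1, beside 31.4% of all genes.

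Other angiogenic ligands spread widely. Of 14 such genes 13 showed spread beyond counting noise (76.7% of all genes did). The median SD of the 14 was 0.65 in log2 CPM beside 0.29 for all genes, a comparison not matched for level. Sema3c, a secreted semaphorin, had 317, 357, 211 and 382 CPM, and Fgf1, a fibroblast growth factor, 133, 280, 202 and 230 CPM. Pdgfb, which endothelium releases to recruit pericytes, had 49.5 CPM in tumor 1 and 17.1 to 21.9 CPM in the others. Pdgfc, a mesenchymal growth factor, had 11.4 CPM in tumor 1 and 3.21 to 3.95 CPM in the others, and Fgf2 had 1.48 CPM in tumor 3 and 7.85 to 10.6 CPM in the others, with counts uncertain because it overlaps Nudt6. Ang, angiogenin, had 20.5 to 49.98 CPM and shares exons with Rnase4, so its level is uncertain.

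Of 12 angiogenesis inhibitors 11 were tested and 9 showed spread beyond counting noise. Thbs1, thrombospondin, had 540, 287, 390 and 500 CPM, lowest in tumor 2 like Vegfa, and Timp3, which can block Kdr, had 350, 308, 365 and 471 CPM. Col18a1, the collagen that yields endostatin, had 219, 375, 105 and 203 CPM. Adamts1, a protease that binds Vegfa, had 67.7 CPM in tumor 1 and 117 to 124 CPM in the others. Over the 17 lists, 145 of 156 distinct genes tested (92.9%) showed spread beyond counting noise, beside 76.7% of all genes. The test called 85.3% of genes with a mean of at least 10 CPM, so shares of genes at unlike levels are not directly comparable.

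The genes whose pattern over the 4 tumors was most like that of a member were found for the 5 members with a mean of at least 10 CPM, by the smallest root mean square difference of centered log2 CPM among 9871 protein-coding genes. They were Lipe (0.058) and St3gal5 (0.062) for Vegfa, Ets2 (0.011) and Gdpgp1 (0.016) for Vegfb, Nubp1 (0.0061) and Aga (0.0097) for Kdr, 1600029D21Rik (0.030) and Pgam1 (0.036) for Flt1, and Itgb2 (0.020) and Yae1d1 (0.041) for Tek. These likenesses rest on 4 points per gene and are a description. Itgb2, the shared beta chain of leukocyte integrins, had 31.6, 38.4, 79.0 and 43.2 CPM beside the 11.9, 14.2, 28.6 and 15.8 CPM of Tek.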

How the data were processed

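RNA-seq was performed on 4 macrodissected KP lung tumors, with 1 library each from 500 ng of total RNA by a stranded kit for polyadenylated RNA. Per the submitters' processing notes, the tools were bcl2fastq 2.17, cutadapt 1.4.2, HISAT2, featureCounts 1.4.4 and edgeR on mm10. The strand setting and annotation release are not given in the sources used here. The authors deposited raw counts per gene with no normalization, combined and per tumor, and 156068 of 156068 values were equal between both. The authors also deposited log2 normalized values (TMM and voom), used here as an alternative.

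CPM used TMM effective library sizes from edgeR 4.0.16 in R 4.3.3. For log2 CPM, counts were raised by 0.5 and effective sizes by 1. All genes with a mean of at least 1 CPM were tested by a chi-square test with 3 degrees of freedom and Benjamini-Hochberg adjustment, with calls at an adjusted p under 0.05. The test was checked on simulated Poisson counts, the model that it assumes, so the check does not cover the wider spread of real tumors. Levels of different genes were compared per kilobase of merged exons in GENCODE M21 (GRCm38), by exact two-sided sign-flip permutation tests. A tumor stood apart where Dixon's ratio was above 0.829. Shares of counts, added after the values were seen, carry Wilson 95% intervals. Since no molecular identifiers were used, these intervals and the limit set by 0 counts cover counting error alone. Near-identical copies were sought with BLAST 2.17.0 over at least 80 bases at 97% identity.

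Named genes were the 10 members, at most 4 genes of highest mean CPM from each of 17 marker lists, list genes where 1 tumor stood apart, and the 2 genes nearest in pattern to members with a mean of at least 10 CPM. Tie1, Ccl21a, Gp9 and the members' overlapping genes Mcph1 and Gm17473 fall outside this rule and were named after their values were seen. Members and lists were chosen with earlier results of these data known. Of the list genes, 4 were matched by an older symbol. Alternatives were DESeq2 1.42.0 size factors, library size alone, other filters on low counts, 2 added to each count, the deposited log2 table, longest transcript length and leaving out each tumor.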

Additional observations from a re-analysis of the deposited data

Results flagged for a closer look

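A gap between 1 tumor and the other 3 that was wide for the range, by Dixon's ratio, was looked for in 42 results and in 156 list genes. Chance gives such a gap in about 5% of groups of 4, and none of the 10 members had one, the nearest being Vegfa, with a ratio of 0.795.

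Of the 42 results 1 had such a gap, the mean log2 CPM of the alveolar type 2 list, which was 10.34 in tumor 1. Within that list Slc34a2, a phosphate transporter, had 1847 CPM and Lamp3, a lamellar body protein, 420 CPM in tumor 1, the lowest value of each. Lamp3 shares a near-identical stretch with Ppid, so its counts are uncertain.

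Of the 156 list genes 8 (5.13%) had such a gap, close to what chance gives, and they were named for it. Beside Slc34a2 and Lamp3 these were Adamts1 with 67.7 CPM in tumor 1 (low), Pdgfc with 11.4 CPM in tumor 1 (high), Vegfd with 7.20 CPM in tumor 2 (high), Ramp2 with 13.7 CPM in tumor 3 (high), Fgf2 with 1.48 CPM in tumor 3 (low) and S100a8, a neutrophil calcium-binding protein, with 3.81 CPM in tumor 4 (low).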

How the results depend on the processing

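No paired analysis was possible because the design has 1 group. Over all results and alternatives, 283 values were counted as unchanged, 6 moved, 10 lost a call, 2 gained one and 0 reversed. Unchanged values kept their direction and side of the threshold or moved by less than their spread. Counts and percentages have no spread, and smaller moves were counted as unchanged, such as from 8 to 6 members called without tumor 4. Many of the 283 could not change. The 6 pairs cannot pass the threshold with 4 or fewer tumors, and differences within a tumor are the same under each scaling. The tally is therefore not a measure of robustness. The count of members with spread beyond counting noise was 8. It became 5 with a minimum mean of 10 CPM, which leaves 5 members to test, and 85.3% of genes at that level were called. The count was 5 to 8 when each tumor was left out, and lowest without tumor 3. The count of members highest in tumor 3 was 4. It became 5 with DESeq2 size factors and 1 under the same minimum. When another tumor was left out, 5 to 6 members were highest in tumor 3. Each tumor is highest for a larger share of genes on average when fewer remain, and that share was not computed. Calls that changed for single members are given beside their values. They were not those of Vegfa, Flt1 and Angpt1, which kept theirs without each tumor. With fewer tumors the test also called fewer genes in all, 62.3% without tumor 1, 71.2% without tumor 2, 62.4% without tumor 3 and 71.9% without tumor 4. With no filter on low counts it called 53.5%. Within-tumor differences do not depend on the scaling, and the 6 pairs kept their sign without each tumor. Depth limits Pgf and Vegfc, with 14 to 33 counts per tumor, and Flt4, with 45 to 56.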

Other observations

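Platelet markers disagreed with each other. Pf4, a platelet chemokine that can inhibit vessel growth, had 198.6 CPM in tumor 2 and 15.8 to 30.5 CPM in the others, whereas Itga2b, the platelet integrin chain, had 1.60 to 4.51 CPM, Ppbp at most 1.23 CPM, and Gp9 0 counts in all 4 tumors. Of 6 platelet and megakaryocyte markers 2 were tested and both showed spread beyond counting noise, beside 76.7% of all genes.

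Myeloid markers were also highest in tumor 3 in most cases. Of 8 macrophage markers 8 showed spread beyond counting noise, beside 76.7% of all genes. Of these 5 were highest in tumor 3 (30.2% of all genes were). There the list mean was a log2 CPM of 5.00 beside 4.27 to 4.54 in the others. The mannose receptor Mrc1 had 43.7, 39.7, 108 and 53.3 CPM in tumors 1 to 4. In contrast, the complement genes C1qa (25.7 CPM) and C1qb (36.8 CPM) were lowest in tumor 3. Of 6 neutrophil markers 6 showed spread beyond counting noise (76.7% of all genes did). Their list mean was 3.12 in tumor 3 and 1.92 to 2.64 in the others.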
